A study of Mus musculus with 11 samples.

Results

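The interferon regulatory factors (IRFs) are transcription factors that share a DNA-binding domain with conserved tryptophans. Of the family, 8 members were examined (Irf1, Irf2, Irf3, Irf4, Irf5, Irf7, Irf8 and Irf9), out of 18755 genes measured. A member was taken as the probe sets whose platform annotation gave that symbol alone, and where there were several, as in Irf1, the one brightest on average over the arrays was used. All 8 members were found on the array.

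Primary macrophages were grown from the bone marrow of wild-type C57Bl/6 mice in medium with macrophage colony-stimulating factor and profiled on Affymetrix mouse gene arrays. There were 4 arrays of untreated cells, 3 of cells given 100 ng/ml lipopolysaccharide (LPS, the bacterial ligand of Toll-like receptor signalling) for 1 hour, and 4 of cells given the same LPS for 1 hour with prostaglandin E (PGE), a lipid mediator, at 10 µM. All groups were wild type and shared the growth factor; no group received PGE alone, and which prostaglandin E was used is not given in the labels. Of the 12 arrays the submitters made, 1 LPS array did not meet their quality control and was dropped. The labels do not say whether arrays of a group came from separate mice or cultures, so the p-values measure only the spread between these arrays, which may be technical.

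In resting macrophages most IRF proteins are already present, and several are switched on by phosphorylation and not by new transcription. IRF3 and IRF7 are activated downstream of Toll-like receptor and nucleic acid sensor adaptors by the kinases TBK1 and IKKε and drive interferon-beta. IRF9 acts with STAT2 in the response to type I interferon. IRF1 is itself an inducible gene, IRF2 competes with it for the same sites, and IRF4 and IRF8 act in blood cells together with the ETS factors PU.1 and Spi-B and with BATF proteins.

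After 1 hour of LPS, Irf1 and Irf4 rose several-fold, Irf3 rose slightly, and the other 5 members did not pass the test. With PGE added, Irf1 stood between its untreated and LPS levels, whereas the Irf4 values of the groups with and without PGE overlapped. Irf8 and Irf9 were lowest in the cells given both agents. Counted by comparison, 3 of 8 members rose and 0 fell with LPS against untreated, 2 rose (Irf1, Irf4) and 2 fell (Irf8, Irf9) with LPS plus PGE against untreated, and 0 rose and 3 fell (Irf1, Irf8, Irf9) with LPS plus PGE against LPS. A change is the difference of group means in log2 units ± its standard error (SE) from a limma fit over all 11 arrays. It passed when its p-value, adjusted by the Benjamini-Hochberg method over all 18755 genes, was under 0.05.

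Among all genes 13.2% passed for LPS against untreated (6.55% higher and 6.69% lower), 31.7% for LPS plus PGE against untreated (13.8% higher and 17.9% lower) and 24.7% for LPS plus PGE against LPS (11.9% higher and 12.9% lower). The median change of the 8 members was 0.06, 0.02 and -0.16 in these comparisons, beside -0.01, 0.02 and -0.0045 over all genes. In both comparisons that involve PGE the change depended on level: genes at or above the median level of 5.92 had a median change of -0.11, and dimmer genes one of 0.14. All 8 members lay above that level, the lowest being Irf4 with a mean of 6.34 over all arrays. The comparisons share groups, so their values are given side by side and are not independent. In the same order, 23.1%, 35.1% and 33.9% of all genes had no overlap between the arrays of the groups compared. Lack of overlap in a member is therefore common with so few arrays. Within a group, the correlation of arrays across genes was 0.996 to 0.998. The 9 measured macrophage markers, among them Csf1r and Adgre1, all lay above the array median in every group and 0 passed in any comparison. In untreated cells, those above it were 4 of 10 conventional dendritic cell markers, 1 of 5 plasmacytoid dendritic cell, 1 of 6 B cell, 1 of 7 neutrophil and 0 of 7 T and NK cell markers. With LPS plus PGE against LPS the T and NK cell markers Cd3d (0.27 ± 0.08) and Klrb1c (-0.98 ± 0.18) passed. Their LPS and LPS plus PGE means were low, 3.49 and 3.76 for Cd3d and 4.96 and 3.99 for Klrb1c. The lower quartiles of those arrays were 3.80 to 3.87 and 4.00 to 4.05.

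**Figure D1:**
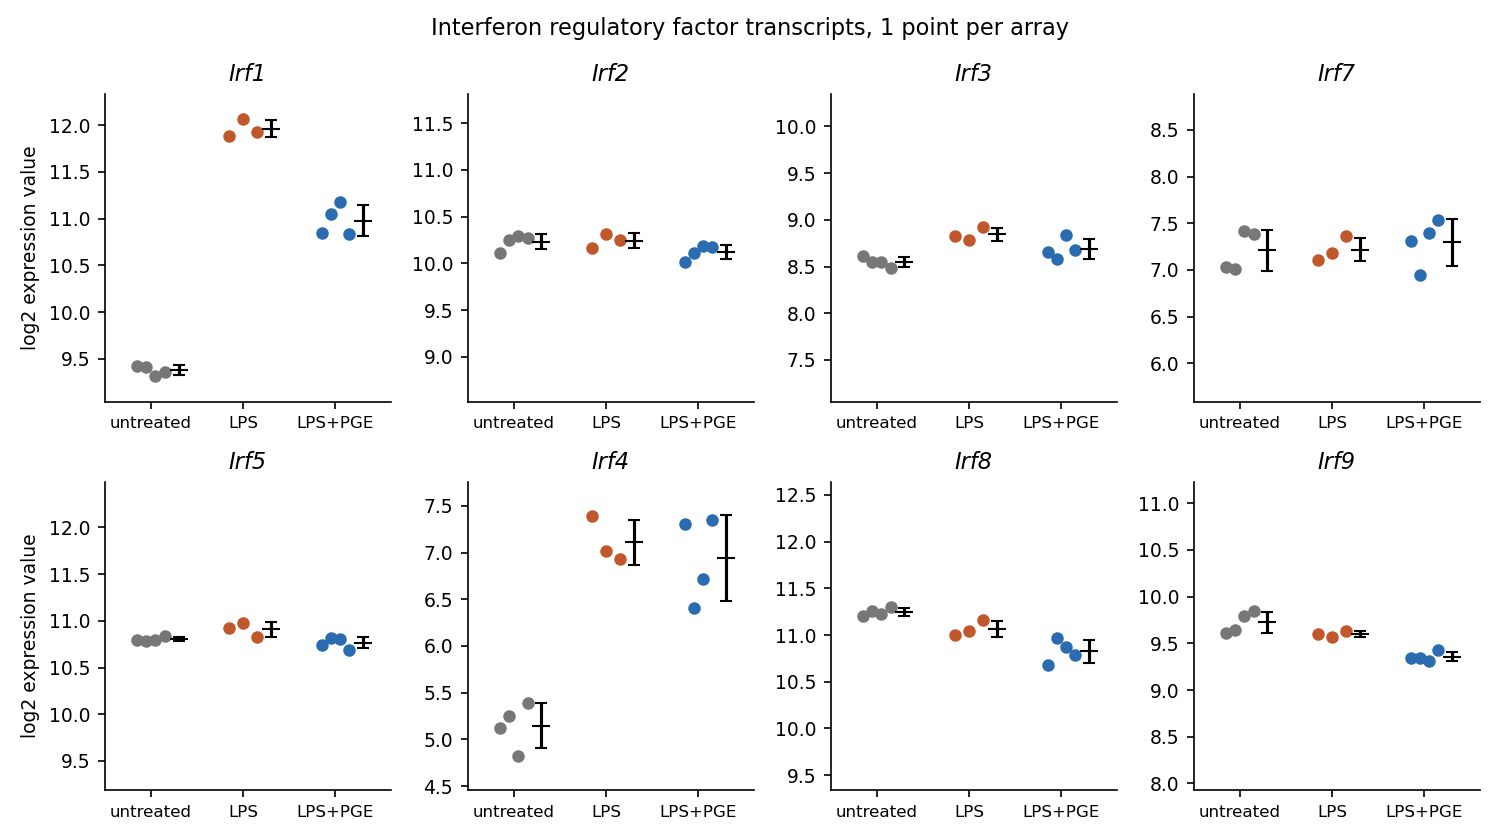
Expression values (log2) of the 8 members by group, 1 point per array, with the group mean and SD as the bar to the right of the points; every panel spans the same number of log2 units, so heights can be compared as changes. Irf1 and Irf4 stand apart from untreated in both treated groups, Irf1 is lower with PGE than without it, and Irf8 and Irf9 are lowest with PGE.

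Irf1 encodes a transcriptional activator of interferon-responsive and antigen presentation genes. Its promoter is shown because it gave the largest change among the members, beside that of Irf4, the other member to rise more than 2-fold, and that of Irf8, which fell. Each sequence is the 250 bases before the annotated start, from RefSeq on GRCm38.p6, all on the + strand (Irf1 chr11:53769764-53770013, Irf4 chr13:30748983-30749232, Irf8 chr8:120736108-120736357). Capitals mark matches to the motifs searched.
Irf1: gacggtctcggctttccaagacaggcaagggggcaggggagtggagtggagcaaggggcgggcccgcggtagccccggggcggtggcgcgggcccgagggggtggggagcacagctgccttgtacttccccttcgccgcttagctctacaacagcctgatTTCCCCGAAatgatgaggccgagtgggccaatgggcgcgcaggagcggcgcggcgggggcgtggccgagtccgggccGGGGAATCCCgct
Irf4: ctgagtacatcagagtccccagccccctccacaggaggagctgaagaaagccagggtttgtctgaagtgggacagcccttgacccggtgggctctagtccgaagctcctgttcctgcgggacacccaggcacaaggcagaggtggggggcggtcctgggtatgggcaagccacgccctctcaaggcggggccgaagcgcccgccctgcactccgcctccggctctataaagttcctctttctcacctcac
Irf8: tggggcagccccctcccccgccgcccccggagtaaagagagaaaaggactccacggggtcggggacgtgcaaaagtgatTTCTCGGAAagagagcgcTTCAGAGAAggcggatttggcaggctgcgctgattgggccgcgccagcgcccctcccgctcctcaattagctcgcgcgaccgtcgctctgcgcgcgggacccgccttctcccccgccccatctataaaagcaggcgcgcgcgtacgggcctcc

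The search covered, on both strands, the STAT site TTCNNNGAA (GAS), a shortened interferon response core GAAANNGAA, the cyclic AMP response element TGACGTCA and its core TGACG (which also lies within the longer one), and the kappaB motif. All 8 members matched the RefSeq promoter table, with 11 windows of 300 bases, of which 7 held no match. The first Irf1 window held a GAS match starting at base -90 from the start and a kappaB match at base -13 that reads as such on both strands. The GAS letters occurred in 8.3% of all 32851 windows and the kappaB motif in 4.51%. Irf8 held 2 GAS matches, at -171 and -153. Irf2 held a GAS match at -224, a kappaB match at -17 and the interferon response core at -241, letters found in 8.56% of windows. Irf7 held TGACG at -91, as did 20.8% of windows somewhere, and no member window held the whole element (1.79% of windows). No match was found in the windows of Irf3, Irf4, Irf5 and Irf9. These are letter matches in a short window and not measured binding sites.

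Irf1 was at 9.42, 9.42, 9.32 and 9.36 in the untreated arrays, at 11.89, 12.06 and 11.93 in the LPS arrays, and at 10.84, 11.05, 11.18 and 10.84 in the LPS plus PGE arrays. The 3 groups did not overlap, and the highest array with PGE lay below the lowest with LPS alone. The means were 9.38 ± 0.05 (SD, n = 4), 11.96 ± 0.09 (SD, n = 3) and 10.98 ± 0.17 (SD, n = 4). Irf1 rose 5.99-fold with LPS (2.58 ± 0.09, limma adjusted p = 7.49e-10) and 3.03-fold with LPS plus PGE (1.60 ± 0.08, limma adjusted p = 2.49e-08). Against LPS alone it was 1.98-fold lower with PGE (-0.98 ± 0.09, 95% interval -1.17 to -0.79, limma adjusted p = 2.44e-05). These 3 calls held under all 21 other fits (other scalings, variance models, filters, or 1 array left out), although the last is just short of 2-fold.

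A dimmer probe set that also names Irf1 alone gave the same order. It read 5.02, 5.04, 5.27 and 5.45 in untreated arrays, 5.97, 7.05 and 6.62 with LPS, and 5.68, 5.78, 5.84 and 5.90 with LPS plus PGE. Its groups did not overlap either, although the LPS arrays were more spread. Fitted among all 35309 probe sets, it rose by 1.35 ± 0.21 with LPS (limma adjusted p = 0.00217) and by 0.61 ± 0.19 with LPS plus PGE (limma adjusted p = 0.0475), and was lower by -0.75 ± 0.21 with PGE than with LPS alone (limma adjusted p = 0.0373). The changes were smaller than those of the brighter probe set in each comparison.

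Irf2, the antagonist of IRF1 at shared sites, differed little between groups. Its values were 10.11, 10.25, 10.30 and 10.27 untreated, 10.16, 10.32 and 10.25 with LPS, and 10.02, 10.12, 10.18 and 10.18 with LPS plus PGE. The groups overlapped throughout, with means of 10.23 ± 0.08 (SD, n = 4), 10.24 ± 0.08 (SD, n = 3) and 10.12 ± 0.08 (SD, n = 4). With LPS the 95% interval of its change ran from -0.14 to 0.16 (limma adjusted p = 0.944). With LPS plus PGE the interval ran from -0.25 to 0.03 against untreated (limma adjusted p = 0.207) and from -0.27 to 0.03 against LPS (limma adjusted p = 0.213).

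**Figure D2:**
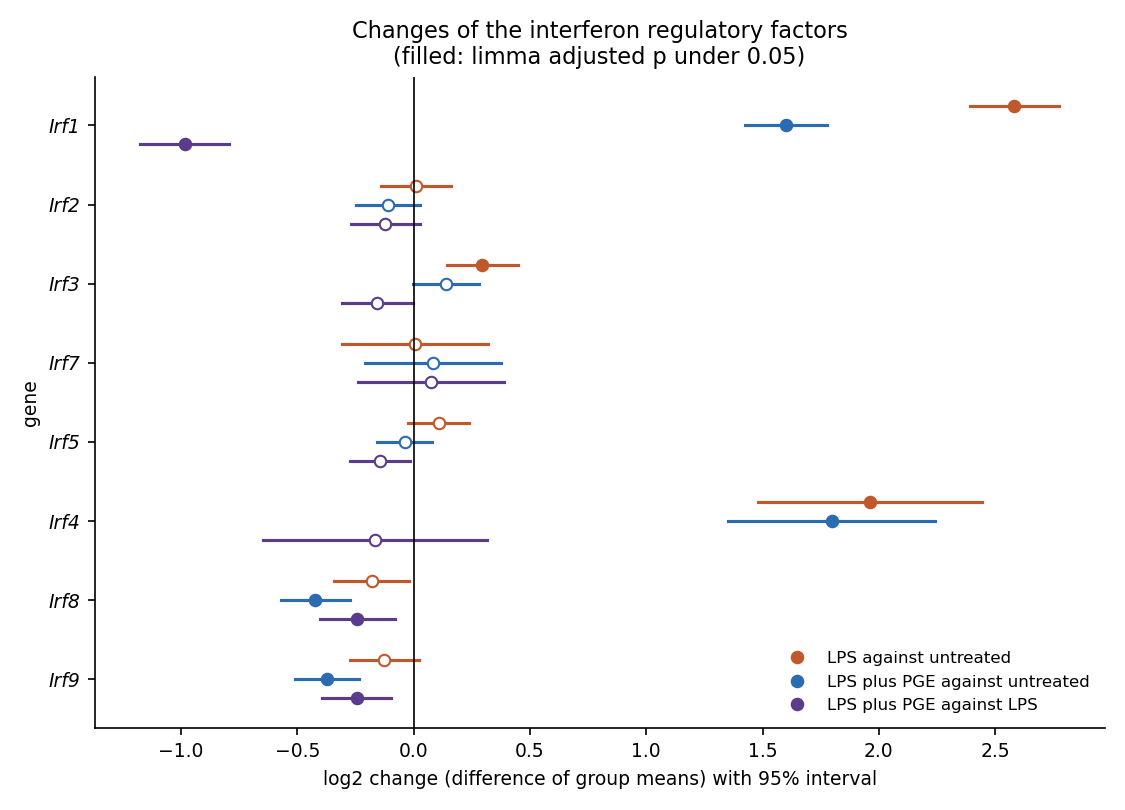
Change (log2, difference of group means) of each member in the 3 comparisons, with its 95% interval from the limma fit; filled points passed at an adjusted p under 0.05. Irf1 and Irf4 lie far to the right against untreated, and Irf1 is the member with the largest fall against LPS (-0.98).

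Irf3, the constitutive factor whose phosphorylation starts interferon-beta transcription, rose slightly with LPS. It was at 8.61, 8.55, 8.55 and 8.48 in untreated arrays, at 8.83, 8.79 and 8.92 with LPS, and at 8.66, 8.58, 8.84 and 8.68 with LPS plus PGE. All LPS arrays lay above all untreated ones (23.1% of all genes had no overlap there), and the arrays with PGE overlapped both other groups. The rise with LPS was 0.30 ± 0.07 (limma adjusted p = 0.0149), or 1.23-fold, and without LPS replicate 3 its limma adjusted p was 0.059. With LPS plus PGE the change against untreated was 0.14 ± 0.06 (limma adjusted p = 0.117), and it passed under the normalizations that change the scaling: 0.19 after quantile normalization (limma adjusted p = 0.0377), 0.22 with equal array medians (limma adjusted p = 0.0235) and 0.28 after cyclic loess (limma adjusted p = 0.00631). Against LPS the change was -0.16 ± 0.07, with a 95% interval from -0.31 to -0.00 (limma adjusted p = 0.122).

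Irf7, the interferon-induced relative of IRF3 that amplifies the type I response, was among the most variable members. Untreated arrays read 7.03, 7.01, 7.42 and 7.39, LPS arrays 7.11, 7.18 and 7.36, and LPS plus PGE arrays 7.31, 6.94, 7.39 and 7.53. The 3 groups overlapped, and the LPS plus PGE arrays were the most spread. None of its changes passed, and the 95% intervals were -0.31 to 0.32 with LPS (limma adjusted p = 0.983), -0.21 to 0.37 with LPS plus PGE against untreated (limma adjusted p = 0.655) and -0.24 to 0.39 against LPS (limma adjusted p = 0.719). Each interval holds changes of either sign, so a small rise or fall of Irf7 is not excluded by these arrays.

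Irf5, which acts downstream of the adaptor MyD88 on inflammatory cytokine genes, was tightly grouped. It was at 10.79, 10.78, 10.80 and 10.84 untreated, at 10.92, 10.98 and 10.83 with LPS, and at 10.74, 10.82, 10.81 and 10.69 with LPS plus PGE. The LPS arrays were the highest as a group but overlapped untreated at 10.84 and 10.83. Its change was 0.11 ± 0.06 with LPS (limma adjusted p = 0.283) and -0.04 ± 0.05 with LPS plus PGE against untreated (limma adjusted p = 0.618), and the latter was 0.04 with equal array medians and 0.05 after cyclic loess. Against LPS, where no array overlapped (as in 33.9% of all genes), it was -0.15 ± 0.06 (limma adjusted p = 0.0914). That difference passed with a trended and robust variance (limma adjusted p = 0.03) or with genes below the median level left out (limma adjusted p = 0.044), and the rise with LPS passed with equal array medians (0.22, limma adjusted p = 0.0286).

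Irf4, a factor of lymphocytes, dendritic cells and alternatively activated macrophages, started from a low level. Untreated arrays read 5.12, 5.25, 4.83 and 5.39, below the medians of those arrays (5.89 to 5.98) and above their lower quartiles (3.82 to 3.90). With LPS it was at 7.39, 7.01 and 6.93, and with LPS plus PGE at 7.31, 6.41, 6.71 and 7.35. Every treated array lay more than 1 log2 unit above every untreated one, and the treated groups overlapped. The means were 5.15 ± 0.24 (SD, n = 4), 7.11 ± 0.24 (SD, n = 3) and 6.94 ± 0.46 (SD, n = 4).

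The rise of Irf4 was 3.90-fold with LPS (1.96 ± 0.22, limma adjusted p = 6.1e-05) and 3.48-fold with LPS plus PGE (1.80 ± 0.20, limma adjusted p = 3.66e-05), and both calls held under all 21 other fits. Against LPS its change with PGE was -0.17 ± 0.22, with a 95% interval from -0.65 to 0.32 (limma adjusted p = 0.604). With PGE against LPS, the change of Irf1 minus that of Irf4 was -0.82. An exact permutation test of this within-array difference gave p = 0.114. With 4 and 3 arrays that test allows no two-sided p below 0.0571, so it could not settle whether PGE altered Irf1 and Irf4 unequally.

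Since Irf4 also marks dendritic and B cells, markers of those cells are given beside it. In bulk RNA a change in the number of such cells and a change in RNA per cell cannot be told apart. Over all genes 6.55% rose and 6.69% fell with LPS, and 13.8% and 17.9% with LPS plus PGE against untreated. Against LPS the shares were 11.9% and 12.9%. Of 10 conventional dendritic cell markers 2 rose with LPS (H2-Eb1 by 0.39 ± 0.08 and Cd209a by 0.37 ± 0.10) and 4 with LPS plus PGE against untreated: the chemokine receptor gene Ccr7 (0.75 ± 0.16), H2-Eb1 (0.44 ± 0.07), Zbtb46 (0.30 ± 0.10) and H2-Ab1 (0.25 ± 0.06). Against LPS Ccr7 was higher (0.66 ± 0.17) and Cd209a lower (-0.31 ± 0.10). The log2 of the summed level of the list ran from 12.58 to 12.79 untreated, 12.80 to 12.86 with LPS and 12.84 to 12.90 with PGE. Xcr1 and Clec9a, 2 of the 10, lay below the lower quartile of all genes in every group. Of 5 plasmacytoid dendritic cell markers 2 rose with LPS plus PGE against untreated (Cox6a2 by 0.43 ± 0.08 and Ccr9 by 0.41 ± 0.13). The Ccr9 means were 3.76 and 4.16, near the lower quartiles of the untreated (3.82 to 3.90) and LPS plus PGE arrays (4.00 to 4.05). Those of Zbtb46 were 4.49 and 4.79, and the arrays of these 2 groups overlapped in both genes. All genes below the median level had a median change of 0.14 in that comparison. Of 6 B cell markers 0 passed with LPS 1 rose with LPS plus PGE against untreated and 2 against LPS, and 4 of 6 untreated means lay below the lower quartile of all genes; the log2 of their sum ran from 7.20 to 7.46 over all arrays. Their part in the Irf4 result was not tested.

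Irf8, a lineage factor of monocytes and macrophages that partners with PU.1, was high in all arrays. It was at 11.20, 11.25, 11.23 and 11.30 untreated, at 11.00, 11.04 and 11.16 with LPS, and at 10.68, 10.97, 10.87 and 10.79 with LPS plus PGE. The groups did not overlap: every LPS array lay below every untreated array, and every array with PGE lay below every LPS array. Of all genes, 23.1% had no overlap for LPS against untreated and 33.9% for LPS plus PGE against LPS. The means were 11.25 ± 0.04 (SD, n = 4), 11.07 ± 0.08 (SD, n = 3) and 10.82 ± 0.12 (SD, n = 4).

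Irf8 fell 1.34-fold with LPS plus PGE against untreated (-0.42 ± 0.07, limma adjusted p = 0.000647), and this call held under all 21 other fits. With LPS alone the change was -0.18 ± 0.07 (limma adjusted p = 0.145), and it passed with a trended and robust variance (limma adjusted p = 0.0402). Against LPS it was lower by -0.24 ± 0.07 with PGE (limma adjusted p = 0.0339), but this call was lost under 10 of 21 other fits, with limma adjusted p-values from 0.00537 to 0.119 over all of them. They included quantile (-0.24, limma adjusted p = 0.0528) and cyclic loess normalization (-0.21, limma adjusted p = 0.0937), and the omission of LPS replicate 2 (limma adjusted p = 0.0574) or 3 (0.119) or of LPS plus PGE replicate 1 (0.0837), 3 (0.0517) or 4 (0.0695).

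Irf9, the DNA-binding subunit of the interferon-stimulated gene factor complex, was lowest with PGE. Its values were 9.62, 9.65, 9.79 and 9.85 untreated, 9.60, 9.57 and 9.63 with LPS, and 9.34, 9.35, 9.31 and 9.42 with LPS plus PGE. The arrays with PGE lay below all others, and the LPS arrays overlapped the lower untreated ones. Of all genes, 35.1% had no overlap for LPS plus PGE against untreated and 33.9% against LPS. Irf9 fell 1.29-fold against untreated (-0.37 ± 0.06, limma adjusted p = 0.000896), which held under all 21 other fits. Against LPS it was lower by -0.24 ± 0.07 (limma adjusted p = 0.0236). That call was lost after quantile (-0.18, limma adjusted p = 0.0998) and cyclic loess normalization (-0.15, limma adjusted p = 0.174) and without LPS replicate 1 (limma adjusted p = 0.0542) or 3 (0.07) or LPS plus PGE replicate 1 (0.0528) or 3 (0.0569). With LPS alone the change was -0.13 ± 0.07 (limma adjusted p = 0.274).

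**Figure D3:**
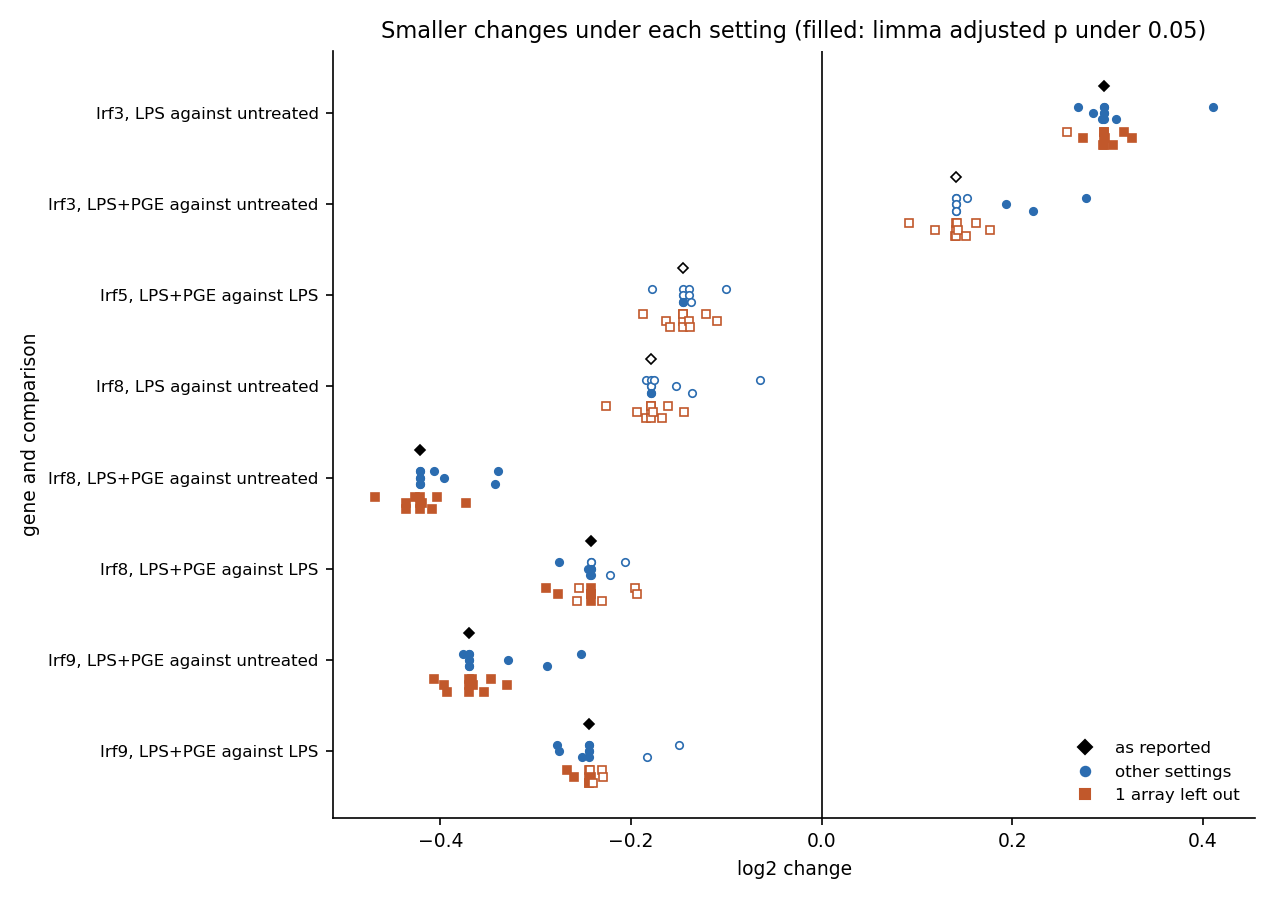
Change (log2) of the members with smaller differences, as reported (diamonds), under the other normalizations, filters and fits (circles) and with 1 array left out (squares); filled points passed at a limma adjusted p under 0.05, and points are spread slightly in height to show overlaps. The falls of Irf8 and Irf9 with LPS plus PGE against untreated stay filled throughout, while those against LPS are open under several settings. The change of Irf8 with LPS alone is open except with a trended and robust variance.

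Genes whose pattern over the 11 arrays was most like that of Irf1 and Irf4 were ranked by the root mean square difference of log2 values, each gene taken minus its own mean. Nearest to Irf1 were the kinase gene Plk2 (0.16), the transcription factor gene Egr2 (0.18), Tagap (0.18) and the mitochondrial carrier gene Slc25a25 (0.21), against a spread of Irf1 about its own mean of 1.05. With PGE against LPS they changed by -0.64, -0.61, -0.87 and -0.81. Nearest to Irf4 were the serotonin receptor gene Htr2a (0.17), the phosphatase gene Dusp16 (0.20), the caveolin gene Cav1 (0.23) and Cdc42ep4 (0.23), against a spread of Irf4 of 0.95. Their changes with PGE against LPS lay between -0.20 and 0.04. The likeness describes these 3 groups of arrays, in which any gene whose group means differ by about the same amounts ranks high.

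**Figure D4:**
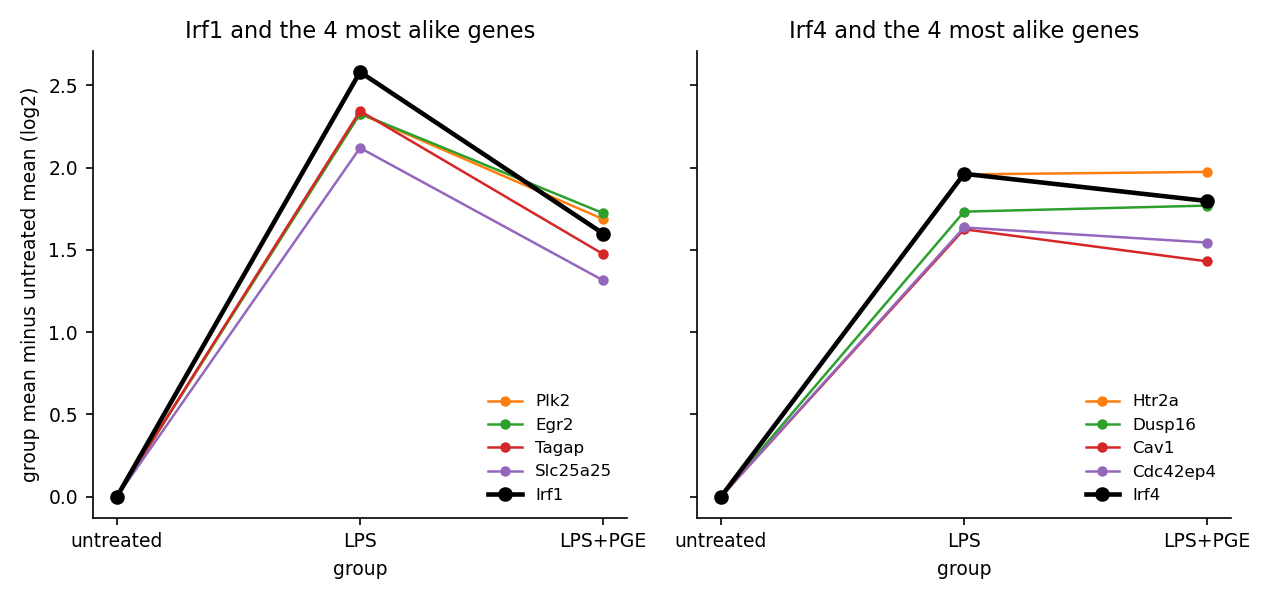
Group means relative to untreated (log2) of Irf1 and Irf4 (black) and of the 4 genes most like each (coloured); lines join the group means of 1 gene and carry no order in time. The Irf1 panel falls from LPS to LPS plus PGE in all 5 genes, and the Irf4 panel is nearly level.

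Genes that switch IRF proteins on were read from a list of 30 sensors, adaptors and kinases, of which 26 were measured. With LPS 10 rose and 4 fell, with LPS plus PGE against untreated 5 rose and 9 fell, and with LPS plus PGE against LPS 1 rose and 11 fell; the median changes were 0.05, -0.11 and -0.13. Over all genes the shares were 6.55% higher and 6.69% lower, 13.8% and 17.9%, and 11.9% and 12.9%, and genes at or above the median level had a median change of -0.11 in both comparisons with PGE, near those of the list. The adaptor Ticam1 (TRIF), through which Toll-like receptors reach IRF3, was at 8.55 untreated, 9.27 with LPS and 8.27 with LPS plus PGE in group means. It rose by 0.72 ± 0.08 with LPS (limma adjusted p = 4.15e-05) and was 2-fold lower with PGE than with LPS alone (SE 0.08 on the log2 scale, limma adjusted p = 7.3e-06). Its fall against untreated, -0.28 ± 0.07 (limma adjusted p = 0.0123), was lost with equal array medians (0.0606) and after cyclic loess (0.212). The DNA sensor Cgas rose by 0.77 ± 0.09 with LPS and was lower by -0.76 ± 0.09 with PGE against LPS. The IRF kinase Ikbke rose by 0.38 ± 0.08 and was lower by -0.38 ± 0.08 in these comparisons. With LPS plus PGE against untreated neither passed (Cgas 0.0077 ± 0.09, limma adjusted p = 0.954, and Ikbke 0.0004 ± 0.07, limma adjusted p = 0.997). The calls of the related kinase Tbk1 (0.22 ± 0.06 with LPS, -0.23 ± 0.06 with PGE against LPS) were lost under 8 and 4 of 21 alternatives. The LPS co-receptor Cd14 rose with LPS (1.64 ± 0.06) and with LPS plus PGE (2.22 ± 0.06 against untreated, 0.59 ± 0.06 against LPS). The adaptor Tirap fell with LPS alone (-0.48 ± 0.08, limma adjusted p = 0.0018). With LPS plus PGE it was lower against untreated (-1.06 ± 0.08) and against LPS (-0.58 ± 0.08). The RNA sensor Ifih1 rose by 1.02 ± 0.12 with LPS and by 0.77 ± 0.11 with LPS plus PGE against untreated. The kinase Irak2 rose by 0.69 ± 0.07 with LPS and by 0.68 ± 0.06 with LPS plus PGE against untreated. Its change with PGE against LPS did not pass (-0.0088 ± 0.07, limma adjusted p = 0.936).

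Of 13 interferon receptor and JAK-STAT genes 12 were measured. For LPS there were 2 rises and 1 fall. For LPS plus PGE there were 4 and 3 against untreated, and 2 and 1 against LPS. Over all genes the shares that rose and fell were 6.55% and 6.69%, 13.8% and 17.9%, and 11.9% and 12.9%. Stat2, the partner of Irf9, fell by -1.03 ± 0.06 with LPS and by -1.03 ± 0.06 with LPS plus PGE (limma adjusted p = 1.5e-07 and 4.57e-08). The inhibitor Socs1 rose by 0.93 ± 0.15 with LPS and by 2.12 ± 0.14 with LPS plus PGE, a difference of 1.19 ± 0.15 between them. The kinase Jak2 rose by 1.37 ± 0.12 with LPS plus PGE against untreated and was higher by 1.00 ± 0.13 than with LPS alone. The phosphatase Ptpn2 rose by 0.48 ± 0.08 with LPS and the receptor Ifnar1 by 0.34 ± 0.07 with LPS plus PGE against untreated. The changes of Ifnar1 with LPS alone (0.23 ± 0.07, limma adjusted p = 0.0614) and with PGE against LPS (0.11 ± 0.07, 0.288) did not pass. Tyk2 was lower by -0.30 ± 0.07 with PGE against LPS, but not after cyclic loess normalization (limma adjusted p = 0.0632).

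Among 16 partners and regulators of IRFs 14 were measured. With LPS 3 rose and 1 fell. With LPS plus PGE 1 rose and 6 fell against untreated, and 1 rose and 5 fell against LPS. Over all genes 6.55% rose and 6.69% fell, 13.8% and 17.9%, and 11.9% and 12.9% in these comparisons. Batf, which binds DNA with IRF4 or IRF8, rose by 0.52 ± 0.13 with LPS (limma adjusted p = 0.0178; 0.0528 without LPS replicate 2, 0.0522 without LPS replicate 3 and 0.0563 with only those groups fitted) and was lower by -0.65 ± 0.13 with PGE against LPS (limma adjusted p = 0.00459). Batf2 was lower too (-0.56 ± 0.12). The corepressor gene Irf2bp1, whose protein binds IRF2, fell by -0.55 ± 0.08 with LPS and by -0.55 ± 0.07 with LPS plus PGE, and its relative Irf2bpl fell by -0.55 ± 0.08 with LPS plus PGE against untreated and was lower by -0.51 ± 0.08 against LPS. Trim21, a ubiquitin ligase that acts on IRFs, fell by -0.52 ± 0.08 with LPS plus PGE against untreated. Its changes with LPS alone (-0.29 ± 0.09, limma adjusted p = 0.0533) and with PGE against LPS (-0.22 ± 0.09, 0.0861) did not pass. Spib was higher with LPS plus PGE against untreated (0.39 ± 0.08) at group means of 3.93 to 4.32, near the lower quartile of the arrays. Its rise against LPS (0.35 ± 0.09) was lost after quantile (limma adjusted p = 0.140) and cyclic loess normalization (0.168) and without LPS replicate 1 (0.0629). Spi1, which encodes PU.1, was lower with PGE by -0.17 ± 0.05 against untreated and by -0.18 ± 0.06 against LPS, calls that ended under 10 and 14 of 21 alternatives, and the rises of Kat2b and Ikzf1 with LPS (0.20 ± 0.06 and 0.19 ± 0.05) each ended under 13.

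Over the 85 genes of the IRF-linked lists, those of interferon and IRF targets included, 31 rose and 7 fell with LPS (median 0.14), 27 rose and 21 fell with LPS plus PGE against untreated (median 0.01), and 7 rose and 26 fell with LPS plus PGE against LPS (median -0.10). In that last comparison the median over all genes at or above the median level was -0.11, and over dimmer genes 0.14. The lists hold genes of both kinds, with Spib and Ifna4 among the dimmer. Over all genes 6.55% rose and 6.69% fell with LPS, and 13.8% and 17.9% with LPS plus PGE against untreated. With LPS plus PGE against LPS the shares were 11.9% and 12.9%. The 26 falls against LPS came to 16 after quantile normalization and to 14 after cyclic loess. Over all genes those falls went from 2416 to 1155 and 1038. The 21 falls against untreated came to 12 with equal array medians and to 13 after cyclic loess. Over all genes those falls went from 3359 to 2119 and 1788.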

How the data were processed

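The authors deposited 1 table of log2 expression values per probe set (35309 probe sets, 11 arrays). That the scale is log2 was inferred: values ran from 1.20 to 13.81, and RMA is among the tools in the submitters' processing notes, beside Partek, R 2.13.1 and Affymetrix Power Tools, whose roles are unstated. No source used here gives the build; scanner files, slides and scan dates were not used. GEO's platform annotation gave 1 symbol to 21143 probe sets, several to 1870 and none to 12296. The highest-mean probe set was kept per gene (18755 genes).

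Group means were estimated from the 11 arrays together in limma 3.58.1 (R 4.3.3, with 8 residual and 3.77 prior degrees of freedom), tests being two-sided, with Benjamini-Hochberg adjustment over all genes. Array number limits the precision. The code was tested on simulated data. Members and gene lists were chosen with earlier results of these data known. From each list the text names the 4 largest passing changes per comparison and a fixed set where measured (Tbk1, Ikbke, Ticam1, Stat2, Spi1, Batf, Ifnb1, Cxcl10, Isg15); likeness is shown for members with a passing change of at least 0.5. Listed genes not measured were not analysed here. Promoters came from RefSeq (GRCm38.p6); figures used matplotlib 3.10.9 in Python 3.11.15. The alternatives covered normalization, variance, weights, groups in the fit, filters, probe set choice, blocking on replicate number, omission of each array, and a 2-fold threshold.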

Additional observations from a re-analysis of the deposited data

How the results depend on the processing

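Of 504 refits of the members' changes under 21 alternatives, 471 kept direction and side of the threshold, 17 lost a call, 7 gained one and 9 changed sign; the calls of Irf1 and Irf4 against untreated and of Irf8 and Irf9 with LPS plus PGE against untreated were kept in all, as was the fall of Irf1 against LPS. The sign changes were all in changes that had not passed: Irf5 with LPS plus PGE against untreated (0.043 with equal array medians, 0.047 after cyclic loess), Irf2 with LPS (-0.028 to 0.051 with 1 array left out, below 0 without untreated replicate 1 or LPS replicate 2), Irf7 with LPS (-0.063 to 0.076, below 0 without untreated replicate 1, untreated replicate 2 or LPS replicate 3), Irf4 with PGE against LPS (-0.30 to 0.013, above 0 without LPS plus PGE replicate 2) and Irf7 with PGE against LPS (-0.0032 to 0.19, below 0 without LPS plus PGE replicate 4). For LPS plus PGE against LPS, members that passed fell from 3 to 1 after quantile or cyclic loess normalization and ranged from 1 to 3 with 1 array left out (1 without LPS replicate 3, LPS plus PGE replicate 1 or LPS plus PGE replicate 3); for LPS against untreated they ranged from 2 to 3. The cause was not tested. With a 2-fold threshold the members that passed were 2 of the 4 against untreated and 0 of the 3 against LPS with PGE, where Irf1 fell just short of it.

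All genes that passed numbered 2483, 5946 and 4641 for LPS and LPS plus PGE, each against untreated, and for LPS plus PGE against LPS. They came to 2358 after quantile normalization and 2123 after cyclic loess in the last, to 3917 after cyclic loess in the second, to 362, 557 and 134 at 2-fold, and ranged with 1 array left out from 1925 to 2364, 4701 to 6143 and 2945 to 4455 (2945 without LPS replicate 3). With equal array medians the median change of all genes with LPS moved from -0.01 to 0.10. The share of rises among passing genes went from 49.5% to 81.8% with LPS, from 43.5% to 68.0% with LPS plus PGE against untreated (54.1% after quantile normalization, 54.4% after cyclic loess) and from 47.9% to 37.5% against LPS.

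In the 85 IRF-linked genes, falls against LPS numbered 26 (16 after quantile normalization, 14 after cyclic loess). Over all genes they numbered 2416 (1155 and 1038). Falls with LPS plus PGE against untreated numbered 21 (12 with equal array medians, 13 after cyclic loess), and over all genes 3359 (2119 and 1788). At 2-fold, 362, 557 and 134 of all 18755 genes passed in either direction. Among the 85 genes the rises and falls were then 17 and 1, 15 and 2, and 2 and 2. With 1 array left out, rises against LPS ranged from 4 (without LPS replicate 3) to 8 and falls from 19 to 25; with LPS rises ranged from 27 to 32 and falls from 5 to 8, and with LPS plus PGE against untreated from 25 to 28 and from 16 to 21.

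Same-numbered arrays deviated together in part, with correlations of -0.02 to 0.21 over genes, against -0.14 to 0.09 for other numbers. Of these pairs 2 of 3, 3 of 4 and 2 of 3 lay over 0.1. The labels do not say that equal numbers pair arrays, so the main fit did not block on them. Whether same-numbered arrays share a batch or a culture was not tested. In the 3 comparisons 2 of 3, 4 of 4 and 3 of 3 arrays went best with their own number. With the replicate block the passing members numbered 3, 4 and 3, as without it, and no member call changed; all passing genes numbered 2454, 6124 and 4698. Rises and falls among the 85 genes were then 29 and 7, 27 and 20, and 6 and 23. Among the genes named from the lists, it ended the calls of Tbk1, Kat2b and Ikzf1 with LPS and of Spi1 in both comparisons with PGE.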

Other observations

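Genes that IRF proteins and interferon are known to switch on were read from a list of 35, of which 33 were measured. With LPS 16 rose and 1 fell (median 0.38), with LPS plus PGE against untreated 17 rose and 3 fell (median 0.47), and with LPS plus PGE against LPS 3 rose and 9 fell (median -0.08). In that comparison 11.9% of all genes rose and 12.9% fell. The shares were 6.55% and 6.69% with LPS, and 13.8% and 17.9% with LPS plus PGE against untreated. Cxcl10, an interferon-inducible chemokine, went from 6.33 untreated to 11.98 with LPS and 12.03 with LPS plus PGE in group means, a rise of 5.65 ± 0.15 with LPS (limma adjusted p = 7.94e-11) and of 5.69 ± 0.14 with LPS plus PGE. Gbp5, a guanylate-binding protein gene, rose by 4.04 ± 0.14 with LPS and by 3.77 ± 0.13 with LPS plus PGE, and the chemokine gene Ccl5 by 3.78 ± 0.21 and 4.01 ± 0.20.

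Ifnb1, which encodes interferon-beta, was at 3.83 untreated, 7.43 with LPS and 6.88 with LPS plus PGE, rises of 3.59 ± 0.15 and 3.05 ± 0.14. It was lower with PGE than with LPS alone by -0.54 ± 0.15 (limma adjusted p = 0.022), a call lost after quantile normalization (0.0948) and without LPS replicate 2 (0.0740), LPS replicate 3 (0.0724) or LPS plus PGE replicate 4 (0.0505). Il12b, a cytokine subunit gene, rose by 5.25 ± 0.18 with LPS and by 3.81 ± 0.16 with LPS plus PGE. It was lower with PGE by -1.44 ± 0.18, the class II regulator Ciita by -0.87 ± 0.10 and Gbp2 by -0.71 ± 0.12 (limma adjusted p = 3.23e-04, 1.43e-04 and 0.00194). Il27 was lower by -0.71 ± 0.20 (limma adjusted p = 0.0242), a call lost after quantile (0.0683) and cyclic loess normalization (0.0537), without LPS plus PGE replicate 3 (0.0574) and without LPS replicate 2 (0.0535), where the change was -0.42. The ubiquitin-like modifier gene Isg15 rose by 2.08 ± 0.17 with LPS and by 2.76 ± 0.15 with LPS plus PGE. It was higher with PGE than with LPS alone by 0.68 ± 0.17 (limma adjusted p = 0.0141), and without LPS replicate 3 its limma adjusted p was 0.0529.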
